A study of Mus musculus with 2 samples.

Results

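*Stra6*, *Aldh1a2*, *Aldh1a3*, *Crabp1*, *Crabp2*, *Rarb* and *Rxrg* code for proteins that take up retinol or that make, bind or read retinoic acid. These 7 genes were taken by symbol from 28001 rows of the septal explant matrix and 32286 rows of the telencephalic vesicle matrix, and each symbol had 1 row in both. In both libraries *Rarb* was highest in mesenchyme-like cells and *Crabp2* was higher in neurons than in apical progenitors (APs). *Crabp1* was high in mesenchyme-like cells of both, and in some cells of a neuron cluster led by *D930028M14Rik* in each. By *Zic1* and *Otp* these clusters are not one and the same cell type. *Stra6* was higher in septal than in pallial APs in both. *Aldh1a3* was found mainly in a group of GABAergic neurons of the vesicle, and *Aldh1a2* was close to undetected.

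The septal explants came from C57BL/6J embryos pooled into 1 library: 8 embryos at E11.5 with the alleles PGKCre;Rosa26YFP and 4 embryos at E12.5 with the alleles Dbx1Cre;Rosa26tdTomato, from 2 litters each. PGKCre acts in all cells, so YFP marks no cell type, while tdTomato marks cells of the Dbx1 lineage; the labels call the genotype of this sample wild-type. The vesicle library pooled 3 wild-type embryos of 2 litters, E12 in the labels and E11.5 to E12 in the study's methods. The explants were run with an older droplet kit than the vesicles, and stage, dissection and kit differ together, so levels are not compared between the libraries and each value has no replicate check. The septal matrix held 5827 barcodes and 83103280 unique molecular identifiers (UMIs), of which 5384 cells with a median of 12868.5 UMIs were kept, and the vesicle matrix held 14283 barcodes and 194821794 UMIs, of which 11758 cells with a median of 9058.5 UMIs were kept. The libraries had 1 barcode in common.

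Retinol circulates bound to a carrier and enters cells through the membrane receptor STRA6. Alcohol and aldehyde dehydrogenases oxidise it to retinoic acid, with the enzymes of the ALDH1A family making the last step, and CYP26 enzymes break retinoic acid down. CRABP1 and CRABP2 bind retinoic acid in the cytoplasm, and nuclear receptors of the RAR family, paired with RXR partners, bind DNA repeats and turn on target genes, one of which is *Rarb* itself. In the embryonic forebrain, retinoic acid comes from the meninges and from parts of the ventral telencephalon, and the septum forms at the rostral midline.

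The genes lie, in GRCm38 with the GENCODE vM21 annotation, at chr9:58063788-58153996 on the plus strand for *Stra6* (ENSMUSG00000032327), chr9:71215789-71296243 on the plus strand for *Aldh1a2* (ENSMUSG00000013584), chr7:66390890-66427517 on the minus strand for *Aldh1a3* (ENSMUSG00000015134), chr9:54764748-54773110 on the plus strand for *Crabp1* (ENSMUSG00000032291), chr3:87948666-87953376 on the plus strand for *Crabp2* (ENSMUSG00000004885), chr14:16430839-16819156 on the minus strand for *Rarb* (ENSMUSG00000017491) and chr1:167598384-167639623 on the plus strand for *Rxrg* (ENSMUSG00000015843). *Stra6* overlaps 2 other genes, 1 of them on its own strand, and *Rarb* and *Aldh1a2* overlap genes on the other strand only. How reads of shared bases were assigned was not checked.

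Promoter windows from RefSeq (GRCm38.p6, 250 bases before to 50 bases after a start site) were at hand for 5 of the 7 genes. They were searched on both strands for the short sites that retinoic acid receptors bind, spelled AGGTCA or AGTTCA, with GGGTCA and GGTTCA as the other two forms, and for direct repeats of them 5, 2 or 1 bases apart. Only *Rarb* held a repeat, with a spacing of 5 bases, against 32 of 32851 promoter windows (0.0974%) for that spacing. The stretch below is shown because *Rarb* is known as a target of its own receptor family. The capitals mark the 17-base repeat, at positions -53 to -37 from the start site. The stretch (chr14:16575507-16575535, minus strand) overlaps 2 annotated exons of *Rarb*.
Rarb: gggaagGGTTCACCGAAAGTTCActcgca
The 250 bases before the start sites of *Crabp1* and *Rxrg* are shown because these 2 genes were high in the same neuron cluster. The *Crabp1* stretch (chr9:54764498-54764747, plus strand) held 0 such sites. Each window of *Stra6*, a gene also high in that cluster of the septal explants, held 0 over the same 250 bases and is not printed. The *Rxrg* stretch, at the start site inside the gene span (chr1:167618015-167618264, plus strand), held 2, marked in capitals, a number that 9.75% of all windows reached over the same 250 bases; the window at the outer *Rxrg* start site (chr1:167598112-167598361) held 1, as 38.6% of windows did or more. Neither the *Crabp1* nor the *Rxrg* stretch printed here overlaps an annotated exon of its gene.
Crabp1: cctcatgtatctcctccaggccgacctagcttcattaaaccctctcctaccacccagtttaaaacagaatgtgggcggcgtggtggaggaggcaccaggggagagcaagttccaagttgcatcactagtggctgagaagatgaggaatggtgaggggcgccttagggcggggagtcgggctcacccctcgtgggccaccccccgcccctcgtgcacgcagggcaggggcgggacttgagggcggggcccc
Rxrg: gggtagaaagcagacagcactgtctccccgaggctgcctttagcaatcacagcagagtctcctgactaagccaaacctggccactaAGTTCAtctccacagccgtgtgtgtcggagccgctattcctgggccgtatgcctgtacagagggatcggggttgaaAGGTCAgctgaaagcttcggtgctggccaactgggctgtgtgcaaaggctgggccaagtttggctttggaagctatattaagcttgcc

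Cells were clustered in each library without the 36 genes of a retinoid pathway list, the 7 genes included, and clusters were named by markers. The classes used most below are septal APs (607 cells in the septal explants, 953 in the vesicle), hem-like APs (129 and 852), pallial APs (898 and 1135), subpallial APs (1198 and 2428), pallial glutamatergic-like neurons (281 and 618), Cajal-Retzius-like neurons (217 and 192), *Lhx6/Nkx2-1* GABAergic-like neurons (167 and 342) and mesenchyme-like cells (44 and 495). The vesicle also held 424 *Isl1/Ebf1* GABAergic-like neurons. The neurons led by *D930028M14Rik* (179 and 169) were set apart after their levels of the 7 genes had been seen, so those levels are a description only. This cluster of the septal explants carried markers of septal glutamatergic neurons, with *Zic1* at 896 CPM (UMIs per 1000000 UMIs of a class) and *Otp* without a UMI, whereas in the vesicle it had *Zic1* at 227 CPM and *Otp* at 125 CPM, so the 2 clusters are not one and the same cell type by these genes. The mesenchyme-like cells of the septal explants were led by macrophage genes as well as collagens, and are split below.

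Levels are the UMIs of a gene summed over the cells of a class, scaled by all UMIs of those cells to CPM, with an exact Poisson 95% interval. Shares of cells with a UMI have an exact Clopper-Pearson 95% interval, and ratios of levels have an exact conditional binomial one. All 3 kinds of interval cover counting error only. Erythroid-like cells (26 and 400, with median UMIs of 29045.5 and 5428.5) show what free RNA can leave in a cell that should lack a gene. Since UMIs come from 3′ ends, levels are compared between classes and not between genes.

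*Stra6*, the retinol uptake receptor, had its higher levels in the septal explants in the *D930028M14Rik*-led neurons at 29.0 CPM (22.4 to 37.1), the *Lhx6/Nkx2-1* neurons at 28.8 CPM and the septal APs at 22.6 CPM (19.5 to 25.9). Pallial APs were lowest at 1.44 CPM. The septal APs alone held 32.2% of the library's *Stra6* UMIs. In between lay the mesenchyme-like cells at 13.8 CPM (21.5 CPM, 10.7 to 38.4, in the 33 of them led by mesenchyme markers), the Cajal-Retzius-like neurons at 12 CPM, the pallial glutamatergic-like neurons at 8.01 CPM, hem at 7.72 CPM and subpallial APs at 5.64 CPM. When the classes were put in order of level, 0 of 12 neighbouring pairs differed beyond counting error, while the ends of the order did. Some classes in between held few UMIs, such as 11 in the mesenchyme-like cells, so this does not show a gradient. The septal to pallial AP ratio was 15.7 (10.2 to 25.4), and 29.6 at a coarser clustering.

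The vesicle showed the same direction between septal and pallial APs, at 7.88 and 1.56 CPM, with a ratio of 5.05 (3.62 to 7.17) that was 10.3 when all deposited barcodes were used. Its leading class was another one, the mesenchyme-like cells, at 25.1 CPM (21.5 to 29.1), which was 6.12 times (5.15 to 7.25) the level over all neural cells. *Isl1/Ebf1* neurons followed at 20.7 CPM and *D930028M14Rik*-led neurons at 17.5 CPM, and erythroid-like cells and macrophage-like cells had no UMI. Here too 0 of 14 neighbouring pairs in the order differed beyond counting error.

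Within the septal APs, *Stra6* was uneven between clusters. The 3 septal AP clusters of the septal explants had 49.5, 10.0 and 4.82 CPM, and 114 of 607 cells (18.8%) had a UMI, or 14.6% after each cell was thinned to 8000 UMIs, against 0.914% of pallial APs thinned alike and 1 of 26 erythroid-like cells. The 42 septal APs with at least 2 *Stra6* UMIs had the list of septal AP markers, among them the midline growth factor genes *Fgf8* and *Fgf17*, at a summed 5194 CPM, against 3034 CPM in the 493 cells with no *Stra6* UMI, at median depths of 13382.5 and 12798 UMIs. The summed mesenchyme markers were also higher in the *Stra6*-positive cells, at 91.1 against 12.9 CPM, and their part in the *Stra6* level was not tested. In the vesicle the same split gave 949 against 854 CPM for the septal AP markers, but the 38 positive cells were deeper, with a median of 33900.5 UMIs against 11116. The 2 septal AP clusters of the vesicle were uneven as well. The one led by *Fgf17* and *Fgf8* had *Stra6* at 13.7 CPM and the other at 3.06 CPM, against 3.92 CPM in hem.

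*Stra6* was also higher in GABAergic-like and pallial glutamatergic-like neurons than in APs of the same region. GABAergic-like neurons of the subpallium exceeded subpallial APs 5.11 times (3.61 to 7.17) in the septal explants and 7.24 times (5.26 to 9.96) in the vesicle, and pallial glutamatergic-like neurons exceeded pallial APs 5.57 times (3.08 to 10.2) and 3.04 times (1.75 to 5.13). A cluster of 208 neurons of the septal explants that stayed without a name was low, with 7 UMIs, or 2.46 CPM (0.991 to 5.08). Pallial and subpallial APs of that library stood at 1.44 and 5.64 CPM. Ordered from progenitor to neuron by the expression of progenitor and neuron genes, septal APs and *D930028M14Rik*-led neurons gave a course with a dip. *Stra6* stood at 53.1 CPM in the first of 10 bins of the septal explants, fell to 4.46 CPM in bin 7 and stood at 29.3 CPM in the last, and in the vesicle it went from 19.9 CPM through 3.04 CPM to 15.5 CPM. The order places cells by their expression and does not trace descent. In the septal explants the septal AP cluster at 49.5 CPM had a median position of -2, and the one at 4.82 CPM had -1.38. The last bins are the *D930028M14Rik*-led cells, in the vesicle a cluster that took no name from the septal markers. The dip therefore restates differences between clusters and does not show a course of septal differentiation.

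**Figure D1:**
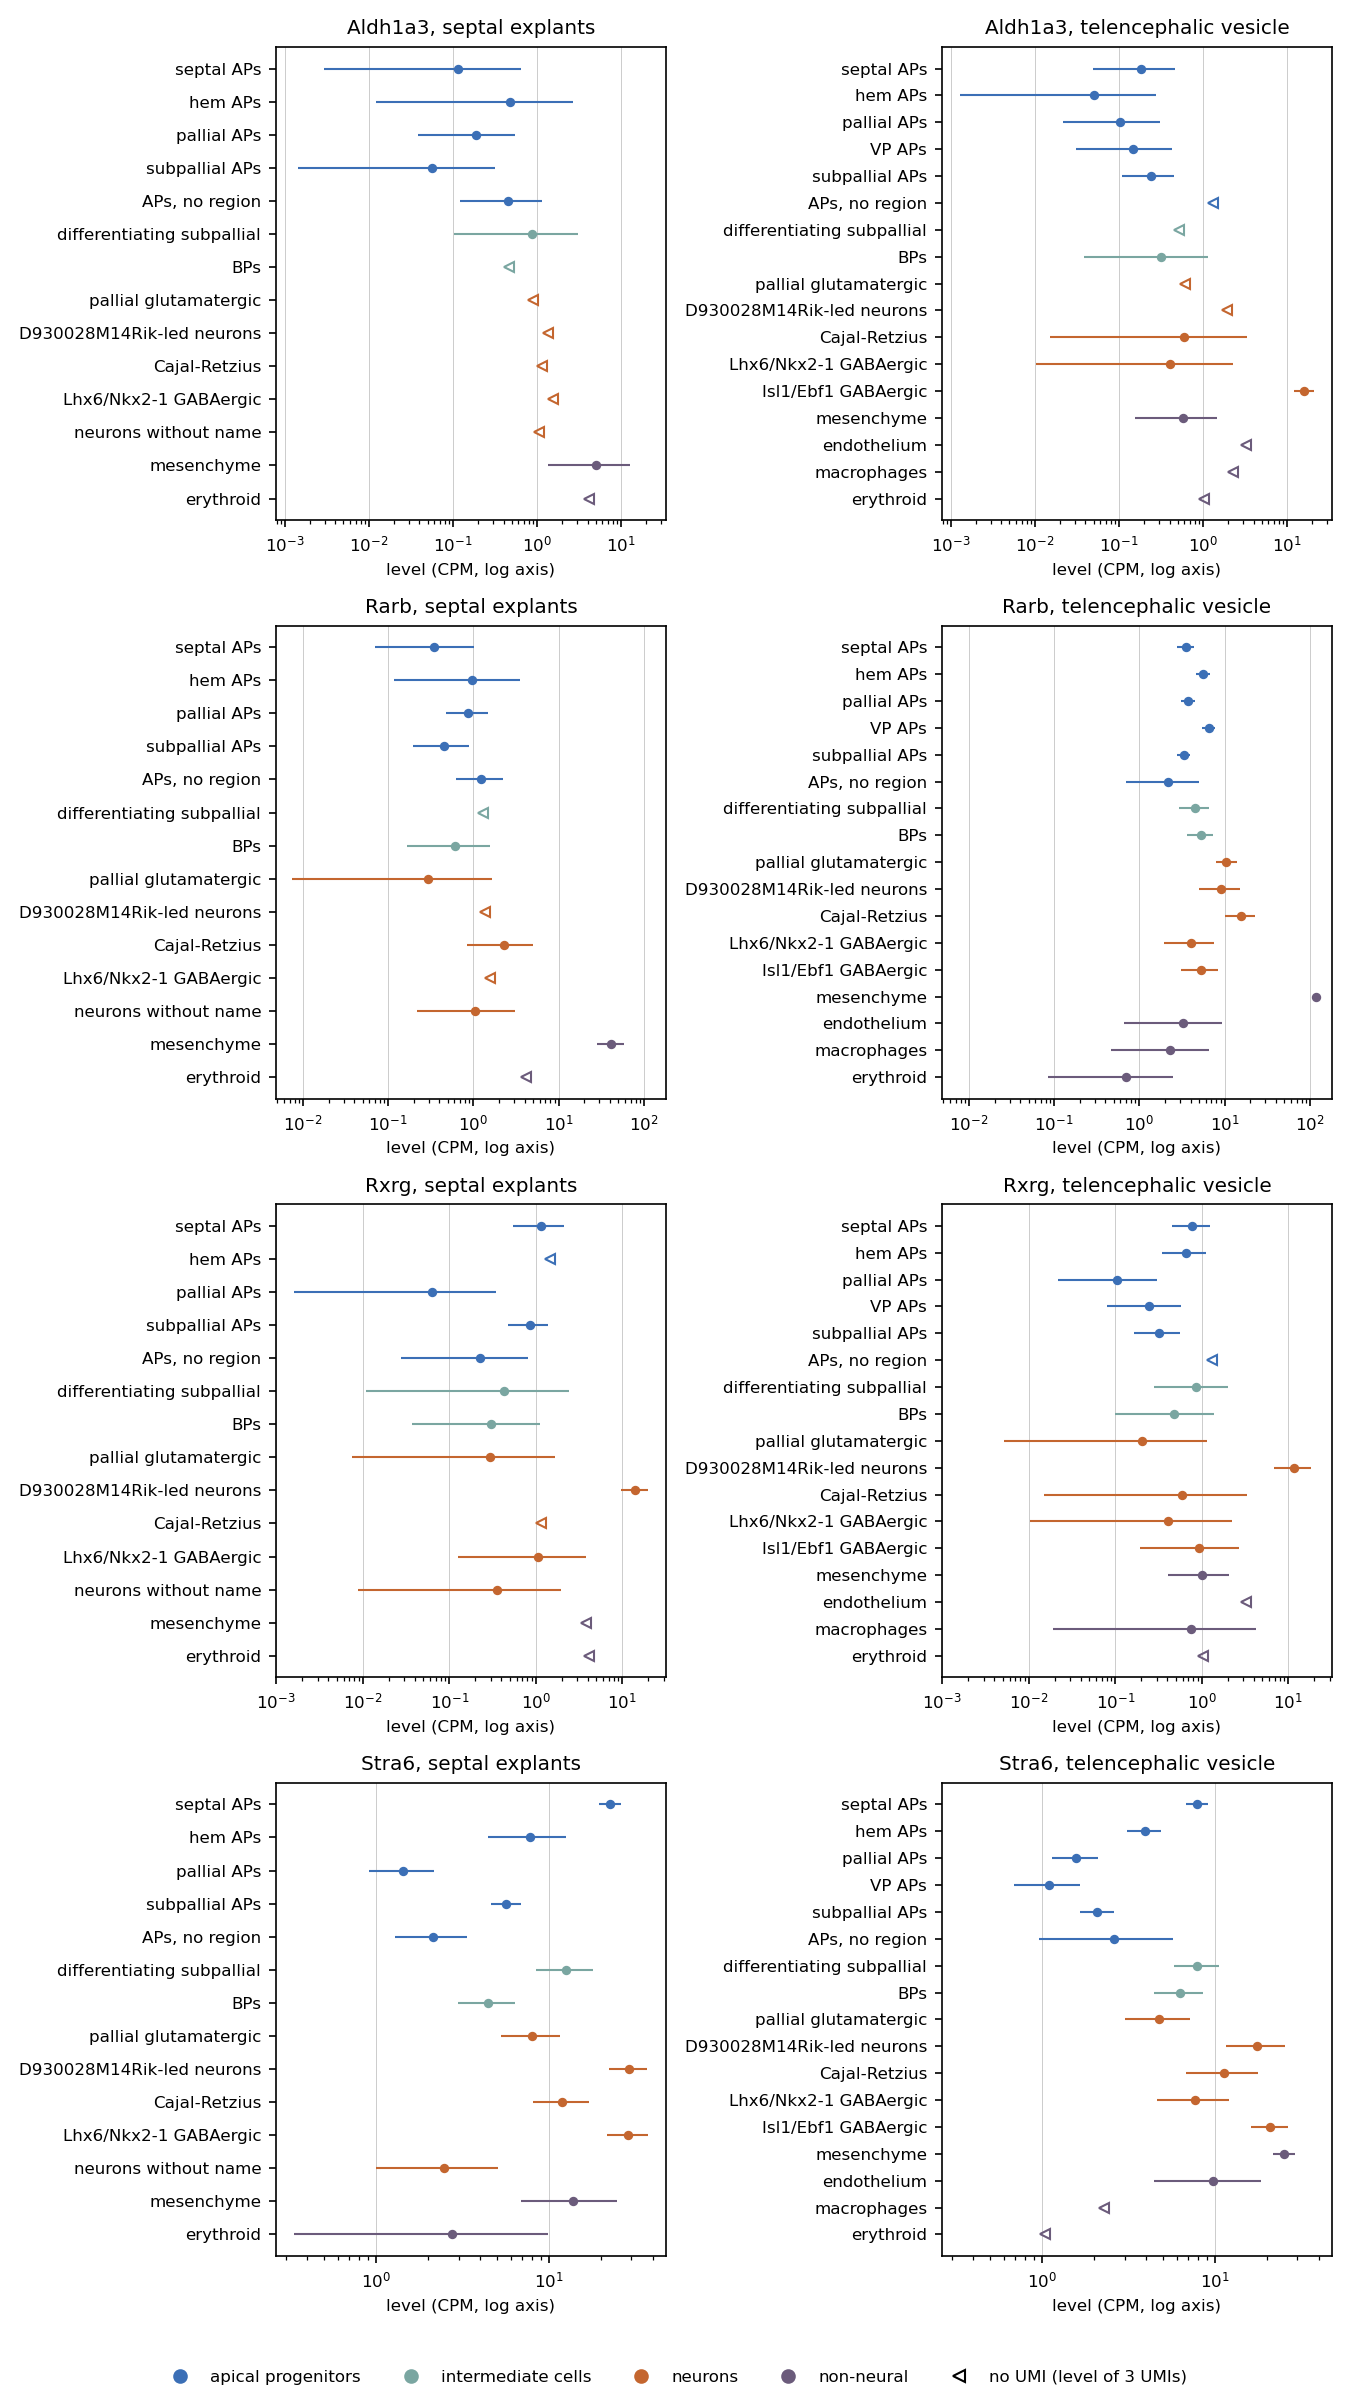
Levels of *Aldh1a3*, *Rarb*, *Rxrg* and *Stra6* (CPM, log axis) in each cell class of the septal explants and the telencephalic vesicle; points are pooled levels, bars are exact Poisson 95% intervals, and an open triangle is a class with no UMI, drawn at the level of 3 UMIs. *Rarb* stands highest in the mesenchyme-like cells of both libraries, at 41.4 and 118 CPM, and *Aldh1a3* in the *Isl1/Ebf1* neurons of the vesicle, at 16.1 CPM.

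Of the enzymes that make retinoic acid, *Aldh1a2*, known from the meninges and from embryonic mesoderm, had 5 UMIs in the kept cells of the septal explants and 12 in those of the vesicle. Mesenchyme-like cells held 4 of them in each library, in 4 separate cells, which is 5.02 and 0.578 CPM. No neuron of the septal explants had a UMI (0 of 1052, with a Clopper-Pearson upper limit of 0.350% for cells with a UMI; 3 counts would be 0.285%).

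*Aldh1a3*, the ALDH1A enzyme known from the lateral ganglionic eminence, had 81 UMIs in the vesicle, of which 52 were in the 424 *Isl1/Ebf1* GABAergic-like neurons, a class named for *Isl1* and *Ebf1*, which are known from striatal projection neurons. These 52 UMIs gave 16.1 CPM (12 to 21.1) in 35 cells (8.25%, or 3.65% at 3500 UMIs per cell), and no erythroid-like cell had one (0 of 400, with a Clopper-Pearson upper limit of 0.918%; 3 counts would be 0.75%). The 342 *Lhx6/Nkx2-1* neurons, the other GABAergic class, had 1 UMI, a ratio of 39.7 (6.83 to 1599), which ranged from 16.4 to 84.1 over the alternatives in clustering and filters. Both clusters of the *Isl1/Ebf1* class had the gene, at 35.1 CPM in one of 86 cells and 8.6 CPM in one of 338 cells. Cells with an *Aldh1a3* UMI lay further toward the neuron end of the differentiation order, with a median position of 5.21 against 3.15, and were deeper, with a median of 9072 against 6735 UMIs. Along the subpallial order the last of 10 bins held 47 of its UMIs (15.8 CPM), and the bin before it stood at 1.87 CPM. *Aldh1a3* had 16 UMIs in all kept cells of the septal explants, and 4 of them were in mesenchyme-like cells.

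*Crabp1*, which binds retinoic acid in the cytoplasm and is known to hand it to degrading enzymes, was close to absent from APs and high in mesenchyme-like cells. These cells stood at 570.2 CPM (519.0 to 625.2) in the septal explants and all APs at 2.40 CPM, a ratio of 238 (195 to 292). In the vesicle they stood at 1305 CPM (1279 to 1333) and all APs at 5.74 CPM, a ratio of 227 (211 to 245). Mesenchyme-like cells held 22.6% of the *Crabp1* UMIs of the septal explants and 83.5% of those of the vesicle.

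Nearly every mesenchyme-like cell of the vesicle had *Crabp1*. A UMI was found in 477 of 495 cells (96.4%, 94.3 to 97.8), or 87.7% at 3500 UMIs per cell, with a median of 11 and a maximum of 116 UMIs per cell, while 13 of 400 erythroid-like cells (3.25%) had one. Among those of the septal explants 33 of 44 cells (75%, 59.7 to 86.8) had one, against 2 of 26 erythroid-like cells (7.69%). The split of the 44 cells by their leading marker list, made after seeing the data, put *Crabp1* in one part: all 33 cells led by mesenchyme markers had it, at 885.7 CPM (806.1 to 971.1), and the 10 cells led by macrophage markers and 1 led by pericyte markers had no UMI. With these 33 cells alone the ratio to APs was 370. In the vesicle, macrophage markers were near 0 in the mesenchyme-like cells, with a summed 4.62 CPM and 4 of 8 genes without a UMI.

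**Figure D2:**
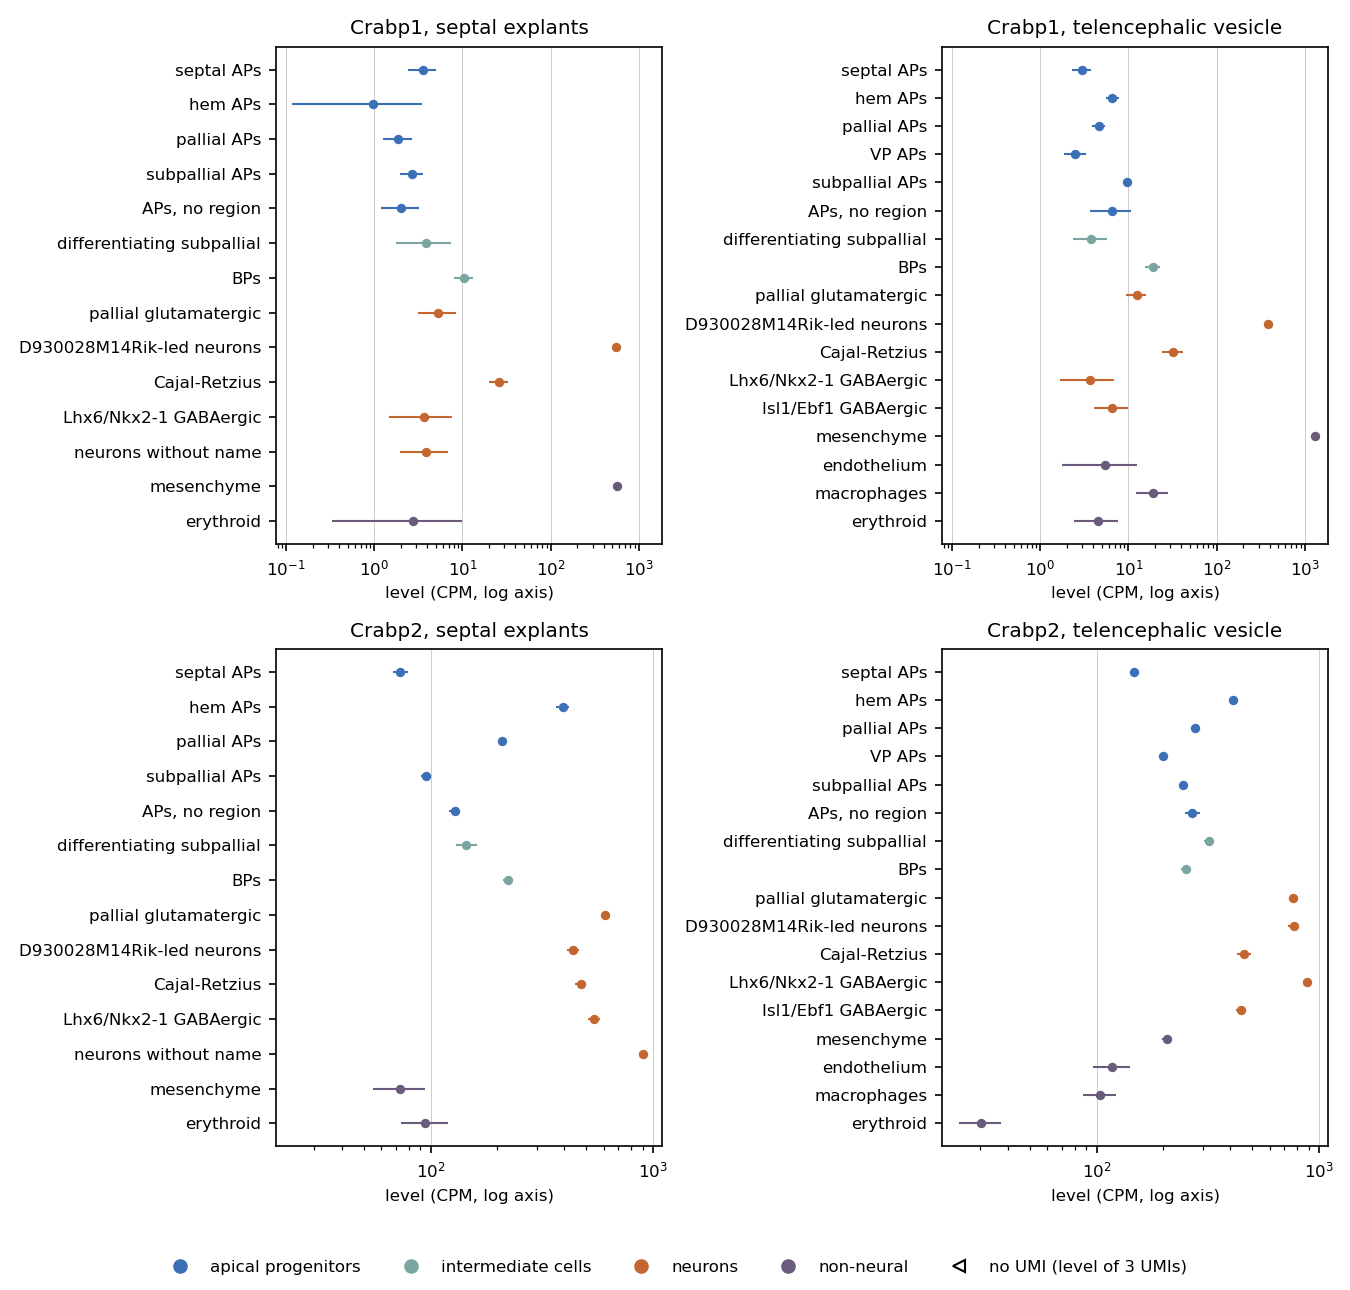
Levels of *Crabp1* and *Crabp2* (CPM, log axis) in each cell class of the septal explants and the telencephalic vesicle; points are pooled levels, bars are exact Poisson 95% intervals, and an open triangle is a class with no UMI, drawn at the level of 3 UMIs. *Crabp1* peaks in mesenchyme-like cells and *D930028M14Rik*-led neurons and is low in APs, while *Crabp2* is spread over all classes and is higher in neurons, at 609 CPM over all neurons of the septal explants and 675 CPM in the vesicle.

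Among neurons, *Crabp1* was high in the *D930028M14Rik*-led cluster, at 560.6 CPM (529.8 to 592.8) in the septal explants and 384.3 CPM (354.0 to 416.6) in the vesicle. In the septal explants this level and that of all 44 mesenchyme-like cells were not separable by counting error (ratio 1.02, 0.911 to 1.13). The 33 of those cells led by mesenchyme markers stood higher, at 885.7 CPM (806.1 to 971.1). The *D930028M14Rik*-led cluster held 61.4% of the *Crabp1* UMIs of the septal explants. Cajal-Retzius-like neurons stood at 25.8 CPM (20 to 32.8) and 32.1 CPM (24.1 to 41.9). In the vesicle 31 of their 54 UMIs were in 1 cell, and without it they stood at 13.7 CPM (8.71 to 20.6); BPs, without their own highest cell, stood at 14.9 CPM. All other neural classes of the septal explants lay between 0.965 CPM in hem and 10.3 CPM in basal progenitors (BPs), and in the vesicle BPs stood at 18.9 CPM and ventral pallium (VP) APs were lowest at 2.48 CPM.

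The *D930028M14Rik*-led neurons had 105 times (66.2 to 178) the *Crabp1* level of pallial glutamatergic-like neurons in the septal explants and 31.1 times (23.8 to 41.2) in the vesicle. The vesicle ratio changed with the filters and the clustering: it was 3.74 with all deposited barcodes, where the class grew from 169 to 724 cells, and 88.7 at a coarser clustering.

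*Crabp1* UMIs were found in some cells of the cluster and not in most. A UMI was found in 70 of 179 cells (39.1%, 31.9 to 46.7) of the septal explants, the median cell had 0 and 1 cell had 204. In the vesicle 48 of 169 cells (28.4%, 21.7 to 35.8) had one, the median was again 0 and the maximum was 107. At a fixed depth the shares were 34.1% and 19.6%. Mesenchyme-like cells of the vesicle were spread around their median instead, with 3.64% of cells at 0 UMIs and 23.0% at 10 to 19.

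**Figure D3:**
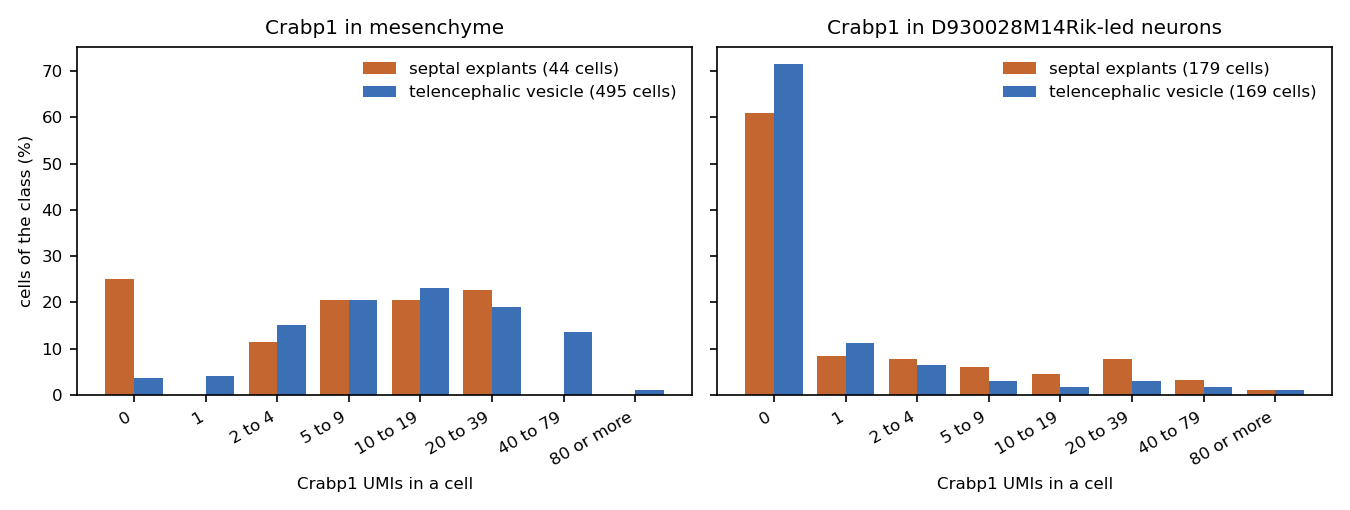
Share of cells (percent) by their number of *Crabp1* UMIs, in mesenchyme-like cells and *D930028M14Rik*-led neurons of the septal explants and the telencephalic vesicle. In the neurons 60.9% and 71.6% of cells have no UMI and a few have 80 or more, whereas the mesenchyme-like cells of the vesicle have 3.64% of cells at 0.

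The *Crabp1*-positive neurons carried few mesenchyme markers. The 55 cells of the septal explants with at least 2 UMIs had the 10 mesenchyme markers at a summed 1.43 CPM against 2.32 CPM in the 109 cells with none, at median depths of 11162 and 10910 UMIs; over the whole cluster 7 of the 10 were at 0. In the vesicle the sums were 19 CPM in 29 cells and 20.1 CPM in 121 cells. For comparison the sum was 3478 CPM in mesenchyme-like cells of the septal explants and 2824 CPM in those of the vesicle. The positive neurons had more of the markers of septal glutamatergic neurons, at 2907 against 2300 CPM in the septal explants and 2700 against 1365 CPM in the vesicle. The markers of diencephalon or preoptic area, a list with *Otp* and *Sim1*, were also higher in the positive neurons of the vesicle, at 361 against 220 CPM, and were at 17.2 against 13.9 CPM in those of the septal explants. Outside this cluster it was otherwise: the 15 BPs of the vesicle with at least 2 *Crabp1* UMIs had the mesenchyme markers at 145.6 CPM against 22.0 CPM in BPs with none, and the diencephalon or preoptic area markers at 587 against 106 CPM; the part of these markers in the BP level was not tested.

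*Crabp1* came late in the order from septal AP to *D930028M14Rik*-led neuron. It stood at 0.932 CPM in the first of 10 bins of the septal explants and at 5.95 CPM in bin 7, and then at 96.6, 449 and 752 CPM. In the vesicle it was at 4.57 CPM in bin 8, 72.9 CPM in bin 9 and 472 CPM in bin 10. Along the pallial order it did not pass 18.7 CPM in the septal explants and 28.1 CPM in the vesicle. The last bins are the *D930028M14Rik*-led cells themselves, which in the vesicle took no name from the septal markers, so these steps restate the difference between the classes with the position added.

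YFP marks cells of the E11.5 embryos of the septal explants, and tdTomato marks only the Dbx1-lineage cells of the E12.5 embryos. Stage, genotype and lineage cannot be told apart in this split. *Crabp1* in the *D930028M14Rik*-led neurons was 667 CPM (625 to 712) in 103 cells with at least 3 YFP UMIs and 626 CPM (549 to 710) in 31 cells with a tdTomato UMI, so it was high in both. It was 204 CPM (159 to 256) in 33 cells with neither, whose embryo group is not known.

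*Crabp2*, which carries retinoic acid to its nuclear receptors, was found in every class. Over all neurons it stood at 609 CPM (596 to 623) in the septal explants and over all APs at 143 CPM (140 to 146), a ratio of 4.25 (4.12 to 4.39). In the vesicle the levels were 675 CPM (661 to 689) and 254 CPM (252 to 257), a ratio of 2.65 (2.59 to 2.71), which was 1.48 with all deposited barcodes. At a fixed depth 88.5% and 80.7% of neurons, 54.6% and 54.0% of APs and 34.6% and 7.56% of erythroid-like cells had a UMI. A single erythroid-like cell of the septal explants had 31 UMIs. The cluster of 308 vesicle cells led by *Ttr* and *Trpm3* stayed without a name and is counted neither as neurons nor as APs. It lay toward the progenitor end of the order and had *Crabp2* at 526 CPM.

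The neuron classes differed among themselves. A neuron cluster of the septal explants without a name, led by *Calb2*, *Tfap2e* and *Cbln2*, was highest at 907 CPM (872 to 943), with the gene in 206 of 208 cells. Pallial glutamatergic-like neurons followed at 611 CPM (585 to 638), then *Lhx6/Nkx2-1* neurons at 543 CPM, Cajal-Retzius-like neurons at 473 CPM and *D930028M14Rik*-led neurons at 439 CPM. In the vesicle *Lhx6/Nkx2-1* neurons led at 883 CPM, with *D930028M14Rik*-led neurons at 771 CPM and pallial glutamatergic-like neurons at 766 CPM close to each other, and Cajal-Retzius-like and *Isl1/Ebf1* neurons at 460 and 446 CPM. Of neighbouring pairs in the order of all classes, 8 of 12 in the septal explants and 9 of 15 in the vesicle differed beyond counting error.

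Among APs, *Crabp2* was highest in hem and lowest in the septum. Hem stood at 393 CPM (367 to 421) and septal APs at 73.0 CPM in the septal explants, a ratio of 5.39 (4.85 to 5.99), and at 413 and 147 CPM in the vesicle, a ratio of 2.81 (2.69 to 2.92). Pallial APs exceeded septal APs 2.89 times (2.65 to 3.15) and 1.88 times (1.80 to 1.96). At 8000 UMIs per cell 33.3% of septal APs of the septal explants had a UMI. Among the erythroid-like cells of that library it was 9 of 26 (34.6%, 17.2 to 55.7). These cells are too few to tell whether *Crabp2* in the septal APs was above the level that free RNA can leave. In the vesicle the shares were 39% of septal APs and 7.56% of erythroid-like cells. *Stra6* went the other way between septal and pallial APs, and the same way as *Crabp2* between hem and pallial APs. Subpallial APs stood at 0.453 times (0.427 to 0.480) the pallial level in the septal explants; the vesicle value, 0.890 (0.864 to 0.918), was 1.04 at a finer clustering and gives no direction.

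*Crabp2* went up along all 3 orders from AP to neuron, with a dip first in the one that starts from septal APs. In the pallial order of the vesicle it rose over the last 4 of 10 bins from 257 through 418 and 608 to 732 CPM, and in that of the septal explants it reached 534 CPM in bin 9 and stood at 377 CPM in bin 10. In the subpallial order it ended at 481 and 690 CPM. In the order from septal APs it went from 124 CPM to 51.3 CPM in bin 7 and 425 CPM in bin 10 in the septal explants, and from 254 CPM through 101 CPM in bin 7 to 816 CPM in the vesicle. As for *Stra6*, this order joins separate clusters and traces no descent.

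**Figure D4:**
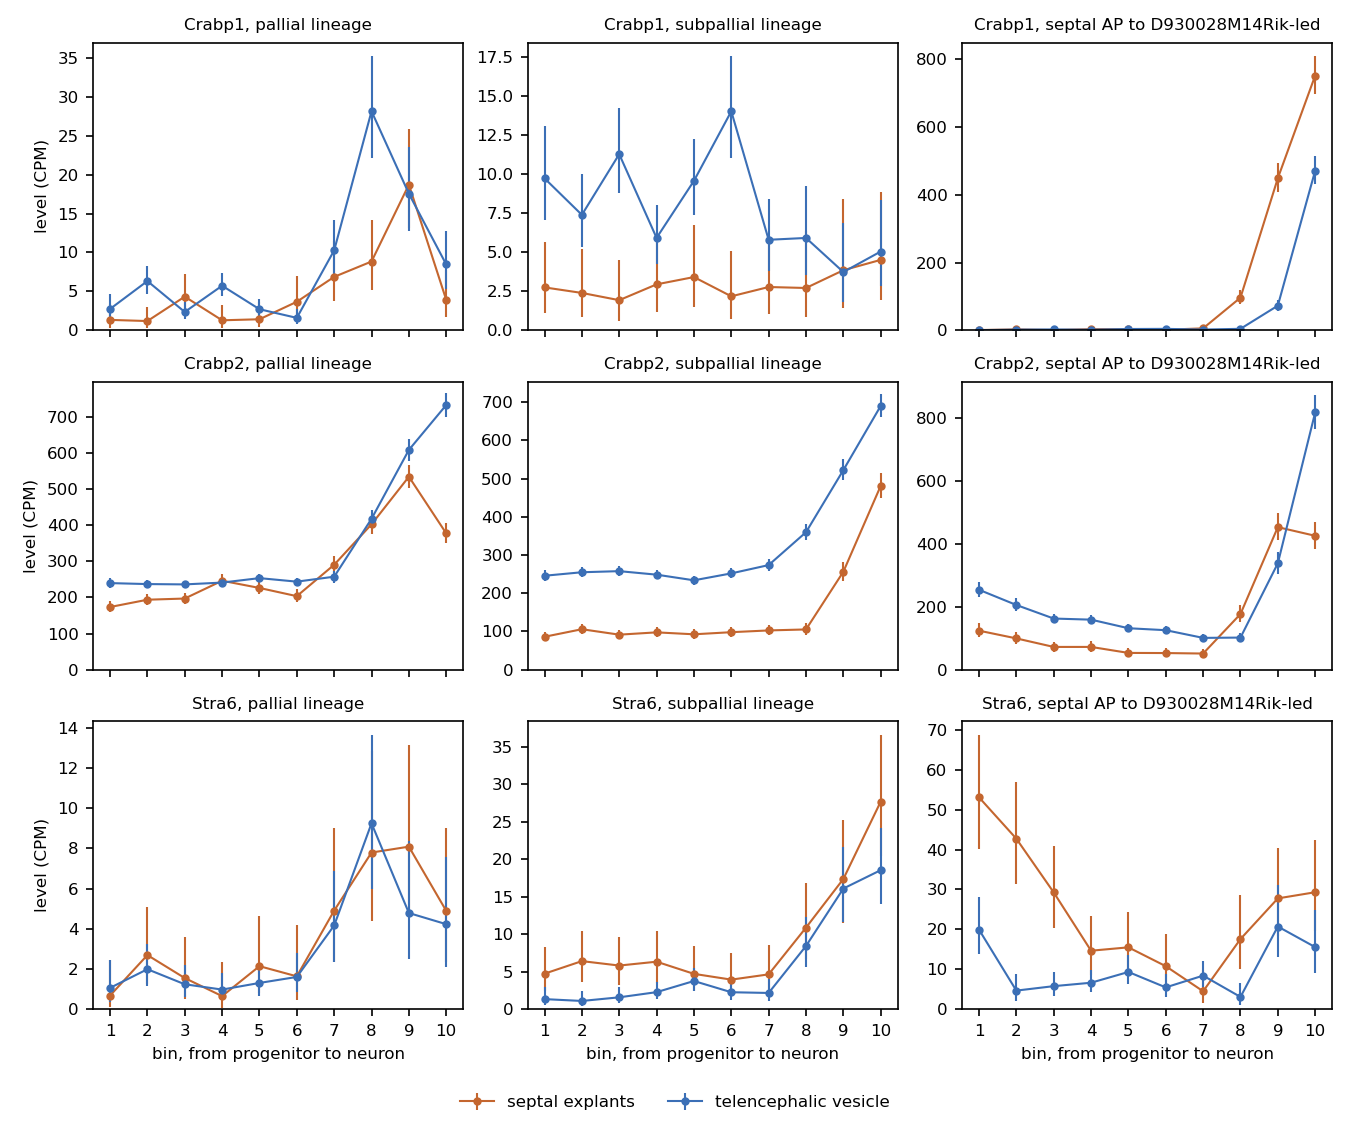
Levels of *Crabp1*, *Crabp2* and *Stra6* (CPM, linear axis) in 10 bins of equal cell number from progenitor to neuron, for the pallial and subpallial orders and the order from septal APs to *D930028M14Rik*-led neurons, in the septal explants and the telencephalic vesicle; bars are exact Poisson 95% intervals. *Crabp1* climbs in the late bins of the last of these orders, to 752 and 472 CPM, *Crabp2* climbs in all 3 orders, and *Stra6* dips in the middle of that same order, to 4.46 CPM in the septal explants.

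Reporter classes of the septal explants also differed in *Crabp2*. It was higher in cells with at least 3 YFP UMIs than in cells without YFP among pallial APs (259 against 152 CPM), septal APs (86.1 against 40.4 CPM) and pallial glutamatergic-like neurons (828 against 468 CPM). YFP stands for the E11.5 embryos, so stage, genotype and reporter dosage cannot be told apart in this difference.

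*Rarb*, which codes for a retinoic acid receptor, was highest in the mesenchyme-like cells of both libraries. In the septal explants these had 33 UMIs, or 41.4 CPM (28.5 to 58.2), in 17 of 44 cells (38.6%, or 20.5% at 8000 UMIs per cell), and all 17 were among the cells led by mesenchyme markers. Neural cells stood at 0.692 CPM, a ratio of 59.9 (37.5 to 94.5), which was 93.1 with the 33 cells led by mesenchyme markers alone (64.4 CPM), and *D930028M14Rik*-led and *Lhx6/Nkx2-1* neurons had no UMI. In the vesicle the mesenchyme-like cells had 818 UMIs, or 118 CPM (110 to 127), in 287 of 495 cells (58.0%, or 31.0% at 3500 UMIs per cell), which was 25.1 times (22.7 to 27.8) the 4.70 CPM of neural cells. Erythroid-like cells of the vesicle stood at 0.692 CPM.

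Among neural classes of the vesicle, *Rarb* was 15.5 CPM in Cajal-Retzius-like neurons, 10.5 CPM in pallial glutamatergic-like neurons, 9.09 CPM in *D930028M14Rik*-led neurons and 6.49 CPM in VP APs. Pallial glutamatergic-like neurons exceeded pallial APs 2.81 times (1.97 to 3.95). *Crabp1* and *Rarb* were in the same cells of the vesicle mesenchyme about as often as their shares imply: 276 cells had both, and 277.5 were computed from the shares within groups of like depth. There were 17 such cells in the septal explants, against 12.4 computed so over all 44 mesenchyme-like cells. That difference cannot show pairing of the 2 genes. *Crabp1* was in all 33 cells led by mesenchyme markers, and the cells led by macrophage or pericyte markers had neither gene. The 287 *Rarb*-positive cells of the vesicle had less *Crabp1* than the 208 others, at 1116 against 1656 CPM, and more of the mesenchyme markers, at 3087 against 2335 CPM, with median depths of 12010 and 9811.5 UMIs.

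*Rxrg*, a partner receptor known from muscle and some neurons, was sparse everywhere and highest in the *D930028M14Rik*-led neurons. There it had 31 UMIs in the septal explants, 14.1 CPM (9.55 to 20) in 23 of 179 cells (12.8%, or 9.15% at 8000 UMIs per cell), and 18 UMIs in the vesicle, 11.7 CPM (6.93 to 18.5) in 11 of 169 cells (6.51%, or 3.57% at 3500 UMIs per cell). All APs stood at 0.524 and 0.382 CPM, giving ratios of 26.8 (15.6 to 46.4) and 30.6 (16.8 to 53.3), and erythroid-like cells had no UMI in either library. The vesicle ratio ranged from 4.82 to 63.2 over the alternatives in clustering and filters.

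Within this cluster the pooled *Crabp1* level was higher in cells with an *Rxrg* UMI. Single cells of the cluster held up to 204 *Crabp1* UMIs in the septal explants and 107 in the vesicle. The split was not repeated without such cells, so their part in the difference is not known. *Crabp1* stood at 1208 CPM in the 23 cells with *Rxrg* and 468 CPM in the 156 without in the septal explants, and at 1669 CPM in 11 cells and 308 CPM in 158 in the vesicle. The diencephalon or preoptic area markers were also higher in the *Rxrg*-positive cells of the vesicle, at 760 CPM in the 11 cells and 228 CPM in the 158. They stood at 14.5 CPM in both parts in the septal explants, and their part in the result was not tested. Over all neural cells of the septal explants 17 had both genes where 3.21 were computed from the shares within groups of like depth, a ratio of 5.30 (3.09 to 8.49), a number that includes the difference between the cluster and the rest. Among septal APs of the septal explants *Crabp2* and *Stra6* were in the same cell 72 times against 52.8 computed so (ratio 1.36, 1.07 to 1.72), and in the vesicle 103 times against 105.1.

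The rest of the pathway was read from the list of 36 genes, which covers uptake, synthesis, binding, degradation, receptors and some targets. In the vesicle, where 23 of the 36 had at least 50 UMIs over both classes, 9 were at least 2 times higher in mesenchyme-like than in neural cells and 2 were at least 2 times lower; of all 16229 genes compared, 11.3% were higher and 16.9% lower. The median log2 ratio was 0.51 for the 23 genes and -0.10 for all genes. Besides *Crabp1*, *Rarb* and *Stra6*, the higher ones included the receptor genes *Rarg* (42.9 against 0.753 CPM, 56.9 times, 45.8 to 71.1) and *Rara* (3.07 times), the degrading enzyme gene *Cyp26b1* (4.07 times), and the retinol dehydrogenase genes *Rdh10* (2.35 times) and *Rdh5* (2.06 times). The lower ones were the coactivator gene *Ncoa1* (0.386 times) and *Rbp4*, which codes for the carrier of retinol in blood (0.393 times, 0.0471 to 1.45, on 2 UMIs in mesenchyme-like cells). *Crabp2* was not past this limit, at 0.709 times. The 44 mesenchyme-like cells of the septal explants were under the minimum of 50 cells for this count.

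**Figure D5:**
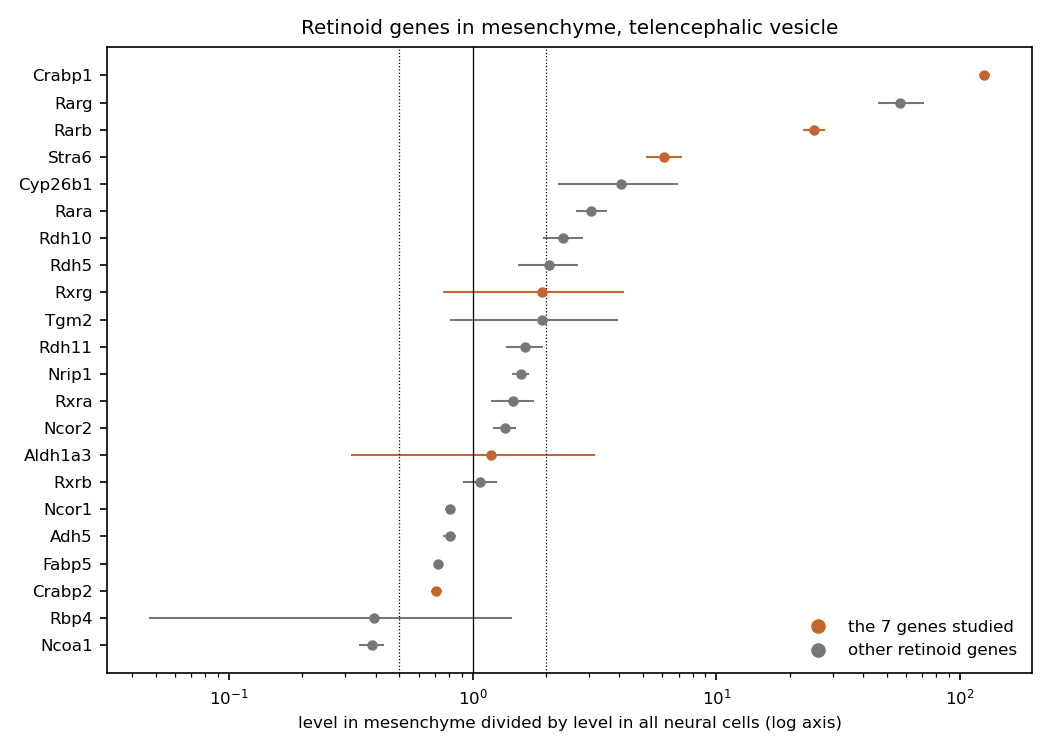
Ratio of the level in mesenchyme-like cells to that in all neural cells of the telencephalic vesicle (log axis) for 22 of the 23 retinoid pathway genes with at least 50 UMIs, with exact conditional binomial 95% intervals; members of the set of 7 are orange and dotted lines mark 0.5 and 2. *Crabp1*, *Rarg* and *Rarb* lie furthest to the right, at 126, 56.9 and 25.1.

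From AP to neuron fewer list genes passed this limit. Between subpallial APs and GABAergic-like neurons of the septal explants 4 of 15 genes were at least 2 times higher (background 14.2%) and 1 lower (18.4%), with a median log2 ratio of 0.12 against 0.01 over all genes; in the vesicle it was 4 of 18 (13.9%) and 1 (18.9%), with 0.27 against -0.08. *Stra6*, *Crabp2* and *Rara*, a ubiquitous retinoic acid receptor gene, were higher in both, and *Rxra*, the gene of an RXR partner, was lower in both, at 0.213 and 0.193 times. *Aldh1a3* was among the higher genes of the vesicle, at 38.6 times (18.9 to 89.1), and is counted in the 4 of 18. It reached the minimum of 50 UMIs over both classes mainly through its 52 UMIs in *Isl1/Ebf1* neurons. Its place among the genes tested therefore rests on the class in which it was higher.

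Between pallial APs and pallial glutamatergic-like neurons 3 of 13 genes were higher (15.3%) and 2 lower (16.3%) in the septal explants, with a median log2 ratio of 0.19 against 0.02, and 5 of 18 higher (16.3%) and 1 lower (23%) in the vesicle, with 0.23 against -0.16. *Stra6* and *Crabp2* were higher in both libraries, and *Crabp1* (2.70 times) and *Rarb* were higher in the vesicle. *Rxra* was lower in both. With so few genes tested, the shares of higher genes exceed those of all genes by few genes.

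Between subpallial and pallial APs of the septal explants 3 of 16 genes were higher in the subpallium (4.77%) and 1 lower (2.69%), with a median log2 ratio of 0.16 against 0.01, and in the vesicle it was 3 of 19 (6.3%) and 1 (3.42%), with 0.15 against 0.02. In the septal explants *Stra6* was among the higher ones at 3.92 times (2.47 to 6.47), with *Rdh10* at 2.41 times, and *Crabp2* was the lower one. In the vesicle *Rbp4* and *Crabp1* (2.08 times) were among the higher ones and *Rarg* was lower.

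A level at least 2 times that in every other class of 50 or more cells was counted for 8 of the 30 list genes with a UMI in the septal explants. In the vesicle it was 10 of 31. The shares over all genes with a UMI were 6.89% and 12.3%. List genes whose leading class held only 1 or 2 UMIs, such as *Lrat* and *Dhrs3* in the septal explants, were not counted. Of the list, 6 and 5 genes had no UMI and 14 and 12 had under 50. Among the 7 genes, those with such a leading class were *Crabp1* and *Rxrg* in both libraries, and *Aldh1a3* and *Rarb* in the vesicle. *Crabp1* led in *D930028M14Rik*-led neurons of the septal explants but in mesenchyme-like cells of the vesicle. The 44 mesenchyme-like cells of the septal explants, too few for this count, stood at 570.2 CPM against 560.6 CPM in those neurons. With them counted, *Crabp1* would not pass in that library.

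Genes whose pattern over clusters was most like that of a member were named by Pearson's r of log levels over the 31 clusters of the septal explants and the 27 of the vesicle, which share library and depth within each. For *Crabp1* they were *Myl6* (0.81), *Tgfb1i1* (0.76) and *Gp1bb* (0.74) in the septal explants and *Tfap2b* (0.79), *Ddr2* (0.72) and *Gadd45b* (0.70) in the vesicle. For *Crabp2* they were *Trim46* (0.89), *1500011B03Rik* (0.88) and *Trim35* (0.86), and *Ctxn1* (0.90), *6330403K07Rik* (0.88) and *Pfn2* (0.88). For *Stra6* they were *Maged2* (0.80), *Itm2c* (0.76) and *Myadm* (0.75), and *Fblim1* (0.85), *Sema3f* (0.83) and *Ttc33* (0.82). For *Rarb*, which had enough UMIs in the vesicle only, they were *Naaladl2* (0.86), *Htr1f* (0.85) and *Gm14858* (0.81). No gene was named for a member in both libraries.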

How the data were processed

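Single cells of 1 pooled septal explant library and 1 pooled telencephalic vesicle library were read with 10x Genomics 3′ chemistry (kit v2 and v3.1). Per the study's methods and the submitters' processing notes, the authors made the deposited count matrices with Cell Ranger 2.1.1 and 7.1.0 on mm10; whether introns were counted in the vesicle is not given in the sources used here. Values are raw UMI counts per gene and barcode, as deposited.

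Barcodes with a mitochondrial share more than 3 scaled median absolute deviations from the median were removed (383 and 1812), then doublets called by Scrublet (60, 1.10%, and 713, 5.72%, at an expected 0.8% per 1000 barcodes, a rate changed once after a first run). With Python 3.11.15, scanpy 1.11.5 and igraph 0.11.9, 2000 variable genes without the 36 retinoid genes, 30 components and 15 neighbours gave 31 and 27 Leiden clusters (resolution 1.5). A cluster took a name from at least 3 of its markers, each in at least 5% of cells and 1.5 times the other clusters' mean. The *D930028M14Rik*-led class was instead set by its leading gene and its position toward the neuron end, and its vesicle cluster met no marker list. The 208 septal neurons without a name met none either, and a further 145 and 1182 cells stayed unnamed. For shares at a fixed depth, cells were thinned to 8000 and 3500 UMIs, leaving out 511 and 1145 shallower cells. Intervals came from scipy 1.17.1. With 1 pooled library per group no test between groups was possible and none was made. The 2-fold calls and the Poisson and ratio intervals were checked on simulated counts. The doublet calls, clustering, naming, thinning, orders and co-detection were not checked in this way.

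The members and lists were chosen with earlier results of these data known. The *D930028M14Rik*-led class, the neurons without a name, the condition that Cajal-Retzius-like clusters hold *Trp73*, the boundary of differentiating subpallial cells, the order from septal APs to *D930028M14Rik*-led neurons, the splits by reporter, leading list and member level, and the ratios reported were chosen after levels per cluster had been seen. Named genes were the 7 members, the list genes at least 2 times higher in a class than in every other class, and for each member with at least 100 UMIs the 3 genes most like it among those with at least 200 UMIs; list genes past a 2-fold ratio between 2 classes were named after their values were seen. The list counts include 1 gene that is not reported here by name.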

Additional observations from a re-analysis of the deposited data

How the results depend on the processing

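Over 23 ratios of levels and 211 alternatives, 156 values stayed within the main value's 95% interval, 53 lay outside it with their direction kept, and 2 turned round. In the septal explants the *Crabp1* ratio of mesenchyme-like cells to APs was 314 as a mean over cells and 370 with cells led by mesenchyme markers only; the *Crabp2* ratio of neurons to APs was 4.05 with all deposited barcodes, 3.98 with doublets kept and 3.84 without the neurons named after their clusters were seen; and the *Stra6* ratio of septal to pallial APs was 29.6 at Leiden resolution 0.8. In the vesicle, all deposited barcodes gave 187 for *Crabp1* in mesenchyme-like cells over APs, 3.74 for *Crabp1* in *D930028M14Rik*-led over pallial glutamatergic-like neurons, 1.48 for *Crabp2* in neurons over APs, 0.855 for *Crabp2* in subpallial over pallial APs, 21.3 for *Rarb* in mesenchyme-like over neural cells and 10.3 for *Stra6* in septal over pallial APs, and turned *Stra6* in *D930028M14Rik*-led over pallial glutamatergic-like neurons round to 0.936. Doublets kept gave 194 for *Crabp1* in mesenchyme-like cells, 2.35 for *Crabp2* in neurons and 21.5 for *Rarb*. Leiden resolutions 0.8 and 2.5 gave 88.7 and 46.3 for *Crabp1* in *D930028M14Rik*-led neurons, and resolution 2.5 gave 2.51 for *Crabp2* in neurons. *Crabp2* in subpallial over pallial APs of the vesicle was 0.851 at resolution 0.8, turned round to 1.04 at 2.5, and was 0.998 with at least 1000 genes per cell, 0.844 with another seed, 0.921 with the retinoid genes kept and 0.926 with differentiating subpallial cells counted as APs. With no minimum on UMIs the list held 15 higher and 4 lower genes in mesenchyme-like cells of the vesicle, in place of 9 and 2, and 8 higher and 8 lower in its pallial glutamatergic-like neurons, in place of 5 and 1; the added genes rest on few UMIs. Apart from these constructions, the cause of each shift was not tested.

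The classes themselves moved. No septal cluster was named mesenchyme-like with all deposited barcodes, no vesicle cluster *Isl1/Ebf1* with doublets kept, and none pallial glutamatergic-like in the vesicle with the retinoid genes kept, so these settings gave no value. The *D930028M14Rik*-led neurons of the vesicle ranged from 52 to 724 cells. No paired analysis was possible because each group is 1 pooled library. Depth limits *Aldh1a2*, *Aldh1a3* and *Rxrg* most, with 5 to 99 UMIs in all kept cells of a library. The alternatives on the mesenchyme-like cells, the added neurons and the differentiating subpallial cells, and the levels without a class's highest cell, were chosen after seeing the data.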

Other observations

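A few other genes of the retinoid list also had a class that stood at least 2 times above every other class of 50 or more cells. *Rdh10*, which makes retinal from retinol, led in septal APs of the septal explants at 33.0 CPM, 5.26 times the next of these classes; the 44 mesenchyme-like cells, too few for this count, stood at 44.0 CPM (30.6 to 61.1), and in the vesicle mesenchyme-like cells were at 17.3 CPM (14.4 to 20.7), above septal APs (10.1 to 13.0). *Aldh1a1*, another retinoic acid synthesising enzyme gene, led in Cajal-Retzius-like neurons of the septal explants at 31.6 CPM, 4.36 times the next class, and had 5 UMIs in those of the vesicle. *Cyp26b1*, a retinoic acid degrading enzyme gene, led in the same neurons of the septal explants at 6.17 CPM on 16 UMIs, 6.40 times the next class. In the vesicle it was not counted, with 9.51 CPM in Cajal-Retzius-like neurons and 7.79 CPM in *D930028M14Rik*-led neurons. *Cyp1b1*, listed under synthesis, led in septal APs of the septal explants at 2.63 CPM on 23 UMIs, 6.83 times the next class. In the vesicle it led in mesenchyme-like cells at 3.03 CPM on 21 UMIs, 5.92 times the next class. *Cyp26a1*, listed under degradation, was counted in both libraries on only 4 and 5 UMIs in its leading class. *Dhrs3*, which turns retinal back to retinol, led in macrophage-like cells of the vesicle at 37.9 CPM, 21.9 times the next class, and *Tgm2*, a target gene of retinoic acid, in its erythroid-like cells at 7.61 CPM.

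Shallow clusters of the vesicle that stayed without a name had *Crabp1* at 77.3 and 175.8 CPM in 2 of them. *Crabp1* in 69 macrophage-like cells of the vesicle, at 19 CPM, came mainly from 1 cell with 21 of 25 UMIs.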
